A study of Mus musculus with 9 samples.

Results

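The nuclear genes of respiratory complexes II, III, IV and V were described in left ventricular tissue after ischemia-reperfusion (I/R). The set held every protein-coding gene whose GENCODE symbol for build GRCm38 was Sdha, Sdhb, Sdhc, Sdhd or Cyc1, or began with Uqcr, Atp5, or Cox and a digit, and whose Ensembl ID was in the deposited count table. It came to 57 genes of the 38293 in the table: 4 of complex II, 9 of complex III, 18 subunit genes of complex IV including Cox7a2l, 9 assembly factors of complex IV, and 17 of complex V. The rule itself uses no measured value.

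RNA was taken from 9 male C57BL/6 mice with a stated age of 8 weeks, and each library stands for 1 mouse. The groups were 3 mice at 14 days after I/R, 3 mice at 1 day after I/R (mice 4, 5 and 6) and 3 sham-operated mice (mice 1, 2 and 3). I/R was a 1 hour closure of the left anterior descending coronary artery followed by reflow, and the tissue was the infarct region of the left ventricle. All mice had surgery, and the time at which sham tissue was taken is not given in the labels. Because the 3 count columns of the 14-day group have the same name, letters (A, B and C) tell those libraries apart and carry no other meaning.

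Complexes II, III and IV pass electrons from succinate and ubiquinol to oxygen, and complexes III and IV pump protons across the inner mitochondrial membrane. Complex V, the ATP synthase, uses the return of protons to make ATP, and the beating heart depends on this supply. Complex II is built from nuclear genes alone, whereas complexes III, IV and V each join nuclear subunits to a few encoded in mitochondrial DNA. Several complex IV subunits come in pairs of genes, a heart and muscle isoform and a ubiquitous isoform.

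Promoter sequences are shown for Sdhd and Atp5g3, which hold the same 2 motifs, for the isoform pairs Cox7a1 and Cox7a2 and Cox8a and Cox8b, and for Cox5b, which stands apart at 14 days. RefSeq (GRCm38.p6) gave a promoter window, 250 bases before the annotated start and 50 from it on, for 41 of the 57 genes. The windows lie at chr9:50603800-50604099 (minus strand) for Sdhd, chr2:73911277-73911576 (minus) for Atp5g3, chr7:140900397-140900696 (minus) for Cox8b, chr19:7217567-7217866 (minus) for Cox8a, chr7:30183921-30184220 (plus) for Cox7a1, chr9:79759804-79760103 (minus) for Cox7a2 and chr1:36691237-36691536 (plus) for Cox5b. Capitals mark exact matches, on either strand, to the motifs described after the sequences, which are written 5′ to 3′ on the gene's strand.
Sdhd: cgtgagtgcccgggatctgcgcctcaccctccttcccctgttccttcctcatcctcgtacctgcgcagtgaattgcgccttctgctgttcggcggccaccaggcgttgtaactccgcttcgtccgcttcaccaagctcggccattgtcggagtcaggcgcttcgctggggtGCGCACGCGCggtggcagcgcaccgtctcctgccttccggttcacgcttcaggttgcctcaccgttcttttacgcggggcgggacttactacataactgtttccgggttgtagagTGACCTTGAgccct
Atp5g3: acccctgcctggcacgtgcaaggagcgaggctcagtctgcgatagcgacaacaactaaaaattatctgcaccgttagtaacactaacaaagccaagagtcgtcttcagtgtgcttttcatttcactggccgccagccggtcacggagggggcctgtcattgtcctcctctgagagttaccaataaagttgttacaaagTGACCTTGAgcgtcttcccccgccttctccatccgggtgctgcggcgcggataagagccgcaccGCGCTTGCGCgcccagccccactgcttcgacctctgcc
Cox8b: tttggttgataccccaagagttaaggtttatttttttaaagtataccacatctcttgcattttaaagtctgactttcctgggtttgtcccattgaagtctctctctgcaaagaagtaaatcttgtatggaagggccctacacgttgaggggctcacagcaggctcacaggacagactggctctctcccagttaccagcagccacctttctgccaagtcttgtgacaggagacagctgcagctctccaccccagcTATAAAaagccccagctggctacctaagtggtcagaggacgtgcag
Cox8a: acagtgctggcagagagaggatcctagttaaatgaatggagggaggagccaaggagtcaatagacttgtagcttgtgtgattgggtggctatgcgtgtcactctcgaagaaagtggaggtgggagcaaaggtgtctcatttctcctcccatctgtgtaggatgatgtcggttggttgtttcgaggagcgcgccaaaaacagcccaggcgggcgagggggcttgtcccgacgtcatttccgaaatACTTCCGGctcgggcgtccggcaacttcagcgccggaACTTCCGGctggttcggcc
Cox7a1: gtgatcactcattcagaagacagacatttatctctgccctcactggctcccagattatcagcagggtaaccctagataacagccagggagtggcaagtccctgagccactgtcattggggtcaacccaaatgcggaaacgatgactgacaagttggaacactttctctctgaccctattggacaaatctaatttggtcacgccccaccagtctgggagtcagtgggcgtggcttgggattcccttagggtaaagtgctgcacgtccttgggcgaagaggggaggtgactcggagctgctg
Cox7a2: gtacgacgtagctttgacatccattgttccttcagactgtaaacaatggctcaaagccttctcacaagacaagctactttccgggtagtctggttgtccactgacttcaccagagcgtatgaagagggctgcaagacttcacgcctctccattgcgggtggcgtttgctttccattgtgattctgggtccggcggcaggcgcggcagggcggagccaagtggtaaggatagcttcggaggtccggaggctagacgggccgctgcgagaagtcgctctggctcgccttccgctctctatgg
Cox5b: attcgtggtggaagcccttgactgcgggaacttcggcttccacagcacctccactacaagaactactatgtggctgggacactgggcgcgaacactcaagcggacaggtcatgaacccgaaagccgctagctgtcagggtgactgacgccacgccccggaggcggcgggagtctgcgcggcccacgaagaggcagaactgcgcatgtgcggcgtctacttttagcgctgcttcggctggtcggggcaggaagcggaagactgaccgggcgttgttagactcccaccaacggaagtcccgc

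The motifs searched were the palindromic site of nuclear respiratory factor 1 (NRF-1), TCAAGGTCA for estrogen-related receptors, CCGGAAGT for GA-binding protein, AAGATGGCG for YY1 and TATAAA for a TATA box, each on both strands. In Sdhd the NRF-1 match lay before the annotated start and the estrogen-related receptor match after it, and Atp5g3 had the same 2 motifs in the other order. Matches to more than 1 motif were also in the windows of Atp5h (GA-binding protein and NRF-1) and Cox10 (GA-binding protein, YY1 and TATAAA). Cox8a held 2 matches to the GA-binding protein motif, and Cox8b held the TATA letters. The windows of Cox7a1, Cox7a2 and Cox5b held none of the 5 motifs, which says only that these letters are not in these windows. Where several windows were listed for a member, the one nearest the start of its GENCODE gene was taken. The shares over all genes took the most upstream window of each gene, so the choice of window differed. Of the 41 member windows, 9 (22.0%) held the NRF-1 motif, against 4.82% of the windows of 27025 genes. The GA-binding protein motif was in 8 member windows (19.5%), against 3.99% of all windows, and the estrogen-related receptor motif in 2 (4.88%), against 0.407%. YY1 matches were in 2 member windows (4.88%) and 1.48% of all windows, and TATAAA was in 4 (9.76%) and 14.2%.

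The deposited values were whole-number counts per gene, from 20215781 to 36816818 per library, of which 52.0% to 71.8% came from mitochondrially encoded genes. Those genes include the mitochondrial ribosomal RNAs. Without ribosomal RNA genes, libraries held 7217019 to 15969149 counts. Levels are given as CPM, counts per 1000000 counts of the library after trimmed-mean (TMM) scaling. Called means a Benjamini-Hochberg adjusted p under 0.05 over all 14124 genes tested, from edgeR's quasi-likelihood test on all 9 libraries, and log2 folds come from the same fit. The p-values measure the spread between 3 mice per group. On the first principal component of all genes tested, mouse 6 (37.2) lay between mice 4 and 5 (78.0 and 78.7) and the sham mice (-40.9 to -35.8), so counts of members are also given without it, and values for the members described whose call changes without it. Of the 57 members, 53 passed the filter on low counts. The testis isoforms Cox6b2, Cox7b2 and Cox8c did not pass, with at most 8, 5 and 0 counts in any library, nor did the c-ring gene Atp5g2, with at most 13. Of the 50-base windows of Atp5g2, 87.4% are also in the transcripts of 2 other genes, so its low count is uncertain.

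In sham hearts, the highest levels per kilobase of transcript were those of Atp5b and Atp5a1, the beta and alpha subunits of the ATP synthase head, at 788 and 582 CPM per kilobase, and of the muscle isoforms Cox7a1 and Cox6a2, at 667 and 620. On the same scale the muscle isoforms stood well above their ubiquitous partners: Cox7a1 had 667 and Cox7a2 151, Cox6a2 had 620 and Cox6a1 34.1, and Cox8b had 405 and Cox8a 55.8 CPM per kilobase. Cox4i1, the common form of subunit 4, had 502 and its lung isoform Cox4i2 had 2.90. The assembly factors were low, from 0.794 CPM per kilobase for Cox16 to 25.5 for Cox20.

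At 1 day after I/R, 48 of the 53 members tested fell against sham and 1 rose, beside 24.8% of all genes tested that fell and 29.4% that rose, 54.1% in all. The member median log2 fold was -0.85, where that of all genes was 0.04. All 4 genes of complex II, 9 of 9 of complex III, 13 of 15 subunit genes of complex IV and 16 of 16 of complex V fell. Their median log2 folds were close together, at -0.95 for complex II, -0.88 for complex III, -0.84 for complex IV and -0.88 for complex V. The assembly factors of complex IV had a median of -0.51, which turned to 0.27 when libraries were scaled to cardiomyocyte markers (below that of all genes, 0.86); 6 of 9 were lower and 1 higher. Libraries of the 1-day and sham groups did not overlap for 48 members lower at 1 day and 1 higher, beside 29.7% and 33.5% of all genes tested.

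**Figure D1:**
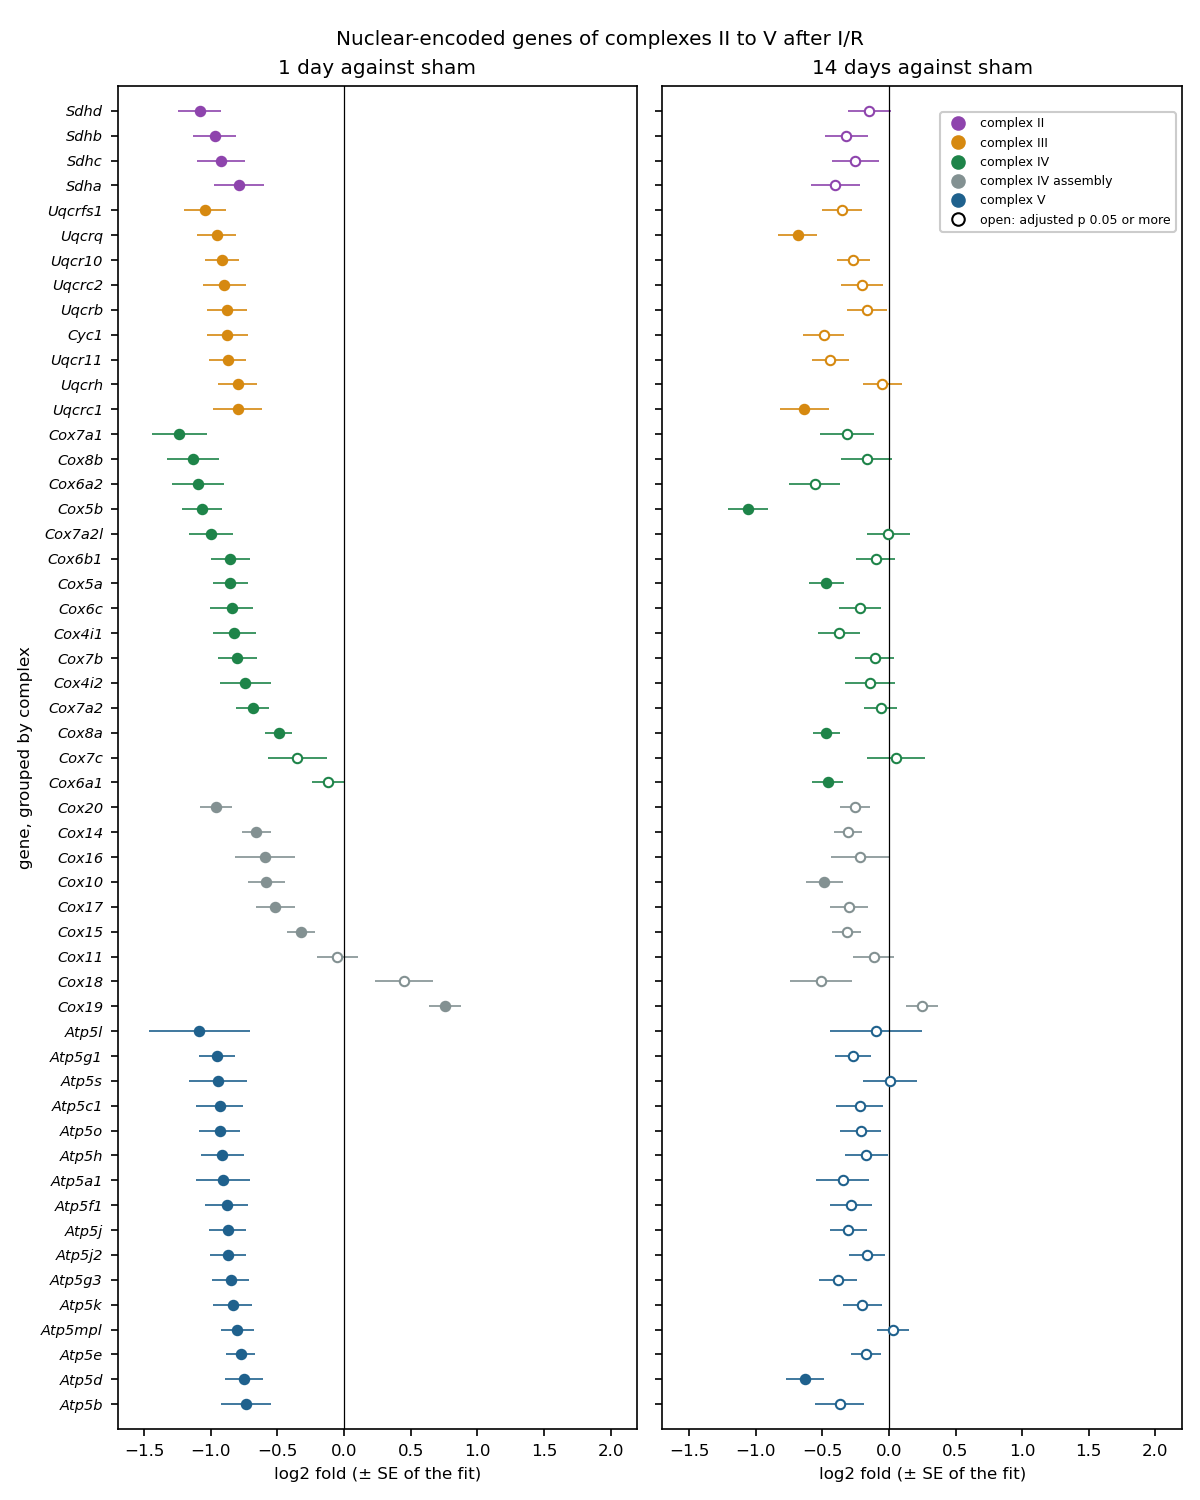
Log2 fold against sham with its standard error for each of the 53 members tested, at 1 day (left) and 14 days (right) after I/R, grouped and coloured by complex and ordered by the 1-day fold. Filled points passed the adjusted p threshold of 0.05: 48 lower and 1 higher at 1 day, and 8 lower at 14 days with TMM scaling. The folds above 0 at 1 day are those of Cox18 and Cox19.

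Cardiomyocyte markers moved beside these genes. Of 15 such markers, 11 fell and 1, Csrp3, rose at 1 day, and their summed level was 37832 to 58100 CPM at 1 day and 73087 to 80341 CPM in sham, with none at 0. Leukocyte markers rose for 9 of the 11 tested, with sums of 250.3 to 317 CPM at 1 day and 112 to 126 CPM in sham. In bulk tissue, fewer cells of a type and less RNA per cell cannot be told apart, and the part of these markers in the result was not tested. Red blood cell markers fell for 5 of 5 and endothelial markers for 4 of 8, and of 7 smooth muscle and pericyte markers 3 fell and 3 rose. Fibroblast markers were split at 1 day: of 9 tested, Dcn, Tcf21 and Dpt fell and Pdgfra and Postn rose. Their sums were 794 to 1105 CPM at 1 day and 567 to 1017 CPM in sham. Beside these marker counts, 24.8% of all genes tested fell and 29.4% rose. Of 6 brown fat markers, Ucp1, Elovl3 and Adipoq were at 0 in at least 5 libraries. Of the 3 tested, Cidea was lower at 1 day than in sham, and Dio2 was higher at 14 days than in sham. All 3 were higher at 14 days than at 1 day. The sum of the brown fat markers was 10.36 to 12.22 CPM at 1 day, 20.97 to 37.75 CPM at 14 days and 13.28 to 14.35 CPM in sham. The sum of 7 fast skeletal muscle markers was at most 3.06 CPM in any library. Only Tnnt3 of these was tested, and it was higher at 1 day than in sham (log2 fold 3.62). It was lower at 14 days than at 1 day (log2 fold -2.50) and not called at 14 days against sham. Of 5 atrial markers, Sln and Bmp10 were also at 0 in at least 5 libraries. Of the 2 tested, Nppa was higher than in sham at both times and Myl4 was called at neither. The sum of the atrial markers was 374 to 481 CPM at 1 day, 247 to 471 CPM at 14 days and 18.1 to 43.6 CPM in sham. When libraries were scaled to the summed counts of the 15 cardiomyocyte markers, a choice made after the data were seen, the median of all genes moved up by 0.82 at 1 day. On that scale 4 members were lower at 1 day than in sham, namely Sdhd, Cox6a2, Cox7a1 and Cox8b, and 5 were higher, namely Cox6a1, Cox11, Cox15, Cox18 and Cox19; of all genes tested, 4.12% were lower and 67.2% higher on that scale. The fitted folds of 37 of the 53 were below 0 and their median was -0.08. Scaling by total count alone moved the median of all genes up by 0.48. It called 22 members lower and 2 higher at 1 day, Cox18 and Cox19, beside 7.49% of all genes lower and 48.6% higher.

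Across all members the summed CPM at 1 day was 51.7%, 45.9% and 67.0% of the sham mean in mice 4, 5 and 6. At 14 days it was 92.3%, 76.6% and 70.4% in libraries A, B and C. Mouse 6 was thus the highest of the 1-day libraries, and it was so for 44 of the 53 members; library A was the highest of the 14-day libraries for 50. The summed cardiomyocyte markers had the same order, at 52.2%, 49.1% and 75.3% of the sham mean in mice 4, 5 and 6 and 94.7%, 80.5% and 72.4% in libraries A, B and C. Without mouse 6, 48 members were lower and 2 higher at 1 day, with a median log2 fold of -1.01. Of the 14649 genes tested without it, 3873 were lower and 4639 higher. Cox7c and Cox18 gained a call and Cox16 lost its call.

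**Figure D2:**
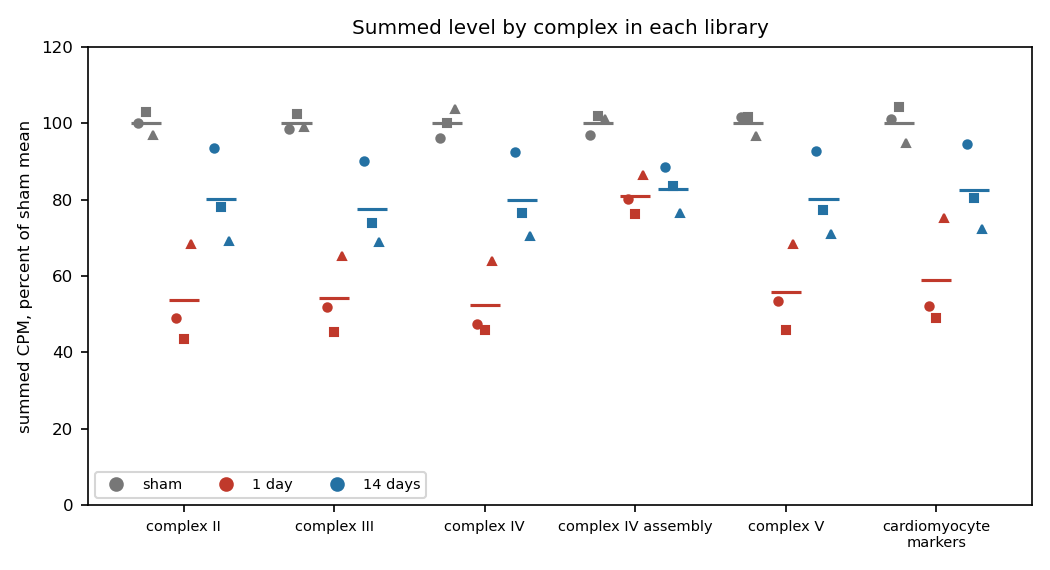
Summed CPM of the genes of each complex, and of the 15 cardiomyocyte markers, in each library as a percent of the sham mean, in the order sham, 1 day and 14 days. Circles, squares and triangles are mice 1, 2 and 3, mice 4, 5 and 6, or libraries A, B and C, and bars are group means; complexes II, III, IV and V average 52.4% to 55.9% of sham at 1 day, and the assembly factors of complex IV 81.0%.

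Set against the members' own total, the shares of the complexes differed little between I/R and sham hearts, those of the assembly factors apart. Complex V made up 50.4% ± 0.8 of the members' summed CPM at 1 day and 49.5% ± 1.0 in sham (SD, n = 3 each), and complex II 9.43% ± 0.40 and 9.69% ± 0.17. The assembly factors of complex IV made up 1.56% ± 0.20 at 1 day, 1.09% ± 0.08 at 14 days and 1.04% ± 0.03 in sham.

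In complex II, succinate dehydrogenase, the membrane anchor gene Sdhd had 62.6, 55.8 and 91.1 CPM at 1 day, against 148, 151 and 144 CPM in sham. No 1-day library reached the sham range, and the fold was -1.08 on the log2 scale (SE 0.16, adjusted p = 0.000324, edgeR). Sdha, the flavoprotein subunit and the most abundant of the 4 by CPM, had 218, 187 and 304 CPM at 1 day, against 416, 426 and 381 CPM in sham, a log2 fold of -0.79 (SE 0.19). Its fold was the smallest of the complex, and its groups did not overlap either. Sdhb, the iron-sulfur subunit, had 126, 116 and 168 CPM at 1 day, against 256, 273 and 273 CPM in sham (log2 fold -0.97, SE 0.16), and Sdhc, the other anchor, had a log2 fold of -0.92.

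In complex III, Uqcrfs1, the Rieske iron-sulfur protein, had the largest change, with 101, 93.6 and 135 CPM at 1 day, against 220.2, 231 and 230.0 CPM in sham (log2 fold -1.04, SE 0.15). The core protein gene Uqcrc1 had the smallest, with 205, 156 and 242 CPM at 1 day, against 362, 362 and 325 CPM in sham (log2 fold -0.80, SE 0.19). For both, every 1-day library lay below every sham library. Uqcrc2, the other core protein gene, had 159.6, 145 and 214 CPM at 1 day, against 319, 334 and 316 CPM in sham (log2 fold -0.90, SE 0.16). The remaining genes of the complex, among them the cytochrome c1 gene Cyc1 and the hinge protein gene Uqcrh, fell within the range set by Uqcrfs1 and Uqcrc1.

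In complex IV the largest changes at 1 day were in the heart and muscle isoforms. Cox7a1 had 90.7, 95.0 and 148 CPM at 1 day, against 254, 252 and 281 CPM in sham, a log2 fold of -1.24 (SE 0.20, adjusted p = 0.000538, edgeR). Its level in mouse 6 was the nearest to sham and still below the sham range. Cox8b had 53.1, 55.8 and 90.1 CPM at 1 day, against 134, 141 and 162 CPM in sham (log2 fold -1.14, SE 0.19), and Cox6a2 171, 168 and 252 CPM, against 375, 419.9 and 470.3 CPM (log2 fold -1.10, SE 0.19). The fitted folds of the ubiquitous forms were smaller. Cox7a2 had 55.5, 56.0 and 73.9 CPM at 1 day, against 97.2, 104 and 97.2 CPM in sham (log2 fold -0.69), and Cox8a 22.3, 24.1 and 19.3 CPM, against 31.8, 33.0 and 27.3 CPM (log2 fold -0.49). Cox6a1 had 18.0, 19.6 and 16.3 CPM at 1 day, against 19.2, 21.8 and 17.4 CPM in sham. These groups overlapped, and with a log2 fold of -0.12 (SE 0.12) Cox6a1 was not called.

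The ratio of an isoform gene to its partner within a library does not depend on scaling, and 9 pairs were compared by a two-sided exact permutation test on log2 ratios of counts plus 0.5. With 3 libraries against 3 the smallest p it can give is 0.1, and adjusted over the 27 tests no value fell below 0.27. The log2 ratio of Cox6a1 to Cox6a2 was -3.25, -3.10 and -3.94 at 1 day, against -4.29, -4.27 and -4.75 in sham. Every 1-day library was above every sham library, with a mean difference of 1.00 (exact permutation p = 0.1), and mouse 6 lay nearest to sham. The log2 ratio of Cox7a1 to Cox7a2 was 0.71, 0.76 and 1.00 at 1 day, against 1.39, 1.27 and 1.53 in sham, again without overlap (difference -0.57, exact permutation p = 0.1).

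The log2 ratio of Cox8a to Cox8b was -1.25 and -1.21 in mice 4 and 5 but -2.23 in mouse 6, against -2.08, -2.09 and -2.57 in sham, so the groups overlapped (difference 0.68, exact permutation p = 0.3). At 14 days the ratios of Cox6a1 to Cox6a2 and of Cox8a to Cox8b were lower than at 1 day by 0.88 and 0.97 with no overlap (exact permutation p = 0.1 for each), and both overlapped sham. Unlike library scaling, an offset for GC content and transcript length bears on a ratio, as checked after the data were seen. Between 14 days and 1 day the difference of the fitted log2 folds was -0.33 with it and -0.88 without for Cox6a1 and Cox6a2, and -0.76 with it and -0.95 without for Cox8a and Cox8b. Between 14 days and sham the difference for Cox6a1 and Cox6a2 was 0.60 with it and 0.10 without. Cox7a2l, which encodes a factor that joins complexes III and IV into supercomplexes and is known to be shortened in C57BL/6 mice, stood lower against Cox7a2 at 1 day than in sham, by 0.33 without overlap (exact permutation p = 0.1). Cox4i1 had 214, 178 and 258 CPM at 1 day, against 393, 389 and 369 CPM in sham, and Cox4i2 1.29, 1.23 and 1.30 CPM, against 1.92, 2.29 and 2.17 CPM. Both fell, and their log2 ratio differed by -0.11 with overlap (exact permutation p = 0.4). The 3 pairs with Cox6b2 or Atp5g2 rest on at most 13 counts of that gene and are not described further.

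**Figure D3:**
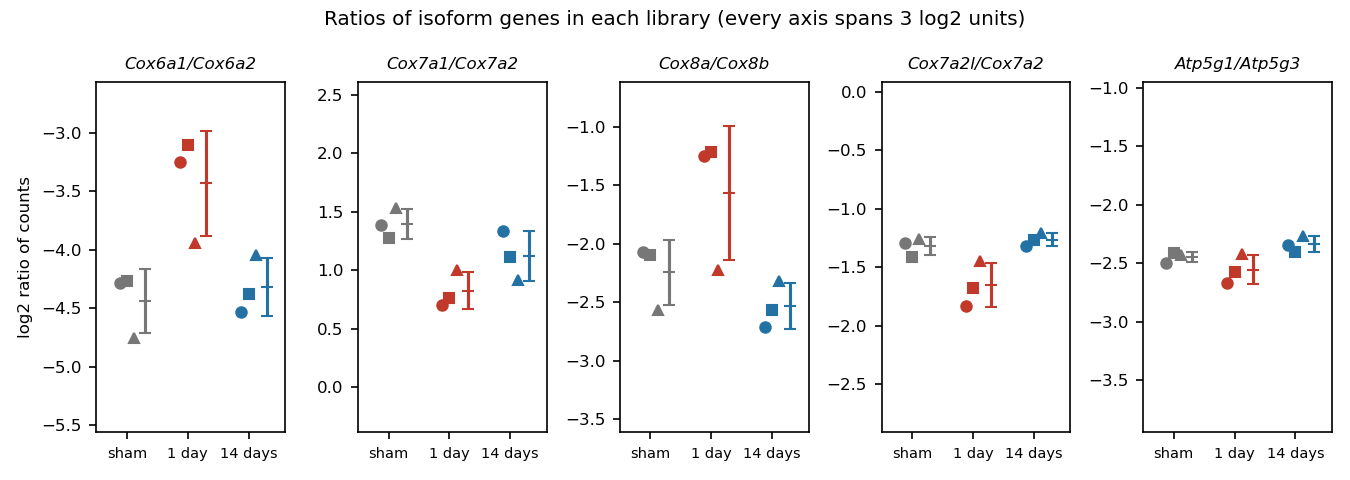
Log2 ratio of counts of isoform genes in each library, for 5 pairs, in the order sham, 1 day and 14 days; circles, squares and triangles are the libraries of each group in label order, and the bar beside them is the mean with its SD. The 3 ratios of Cox6a1 to Cox6a2 at 1 day lie above those of sham, the ratios of Cox7a1 to Cox7a2 lie below, and mouse 6 (triangle) is at the sham level for Cox8a to Cox8b.

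Of the subunit genes with no isoform partner in the set, Cox5b, which encodes a zinc-binding subunit on the matrix side, fell by 1.06 on the log2 scale at 1 day. Cox7c was not called at 1 day, with a log2 fold of -0.35 (SE 0.22), but without mouse 6 the fold was -0.57 and called (adjusted p = 0.0357, edgeR). Only 32 to 72 counts per library were assigned to Cox7c, and 53.0% of its 50-base windows are found in transcripts of other genes. One of these, Gm12338, held 321 to 777 counts and fell at 1 day (log2 fold -0.74, SE 0.14). How reads with several matches were counted is not given in the sources used here, so the value of Cox7c is uncertain.

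Among the assembly factors of complex IV, Cox20, a chaperone of the mitochondrially encoded subunit 2, had 5.41, 5.87 and 7.34 CPM at 1 day, against 11.8, 12.2 and 11.9 CPM in sham (log2 fold -0.96, SE 0.12); 91.1% of its exonic bases overlap those of Hnrnpu. Cox19, which takes part in the handling of copper for complex IV (GRCm38 chr5:139336189-139351418, minus strand), rose. It had 18.2, 17.3 and 18.6 CPM at 1 day, against 10.6, 11.4 and 9.83 CPM in sham, a log2 fold of 0.76 (SE 0.12, adjusted p = 0.000395, edgeR). All 3 libraries at 1 day were above all 3 of sham, and Cox19 was higher under every scaling tried.

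Cox18, which inserts subunit 2 into the membrane, had 4.70 and 3.81 CPM in mice 4 and 5 and 2.46 in mouse 6, against 2.80, 2.63 and 2.75 CPM in sham. The groups overlapped through mouse 6, and the log2 fold of 0.45 (SE 0.22) was not called; without mouse 6 it was 0.65 and called. The heme A synthesis gene Cox10 had 16.5, 16.3 and 21.2 CPM at 1 day, against 24.5, 28.6 and 27.5 CPM in sham (log2 fold -0.58). Cox15, of the same pathway, had 14.8, 12.9 and 14.7 CPM, against 18.5, 17.5 and 17.2 CPM; its log2 fold of -0.32 turned to 0.16 when libraries were scaled by total count alone. Cox14, another assembly factor, had 10.1, 9.13 and 10.5 CPM at 1 day, against 15.3, 16.2 and 15.5 CPM in sham (log2 fold -0.66). None of these groups overlapped. The copper chaperone gene Cox17 fell by 0.51 on the log2 scale. Cox11, which delivers copper to subunit 1, had 3.66, 4.29 and 3.63 CPM at 1 day, against 4.48, 3.61 and 3.90 CPM in sham, and its groups overlapped.

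In complex V every gene tested fell at 1 day, within a log2 fold of -1.09 for Atp5l to -0.74 for Atp5b. Atp5b had 873, 747 and 1099 CPM at 1 day, against 1562, 1535 and 1434 CPM in sham (SE 0.19, adjusted p = 0.00608, edgeR). Atp5a1 had 765, 585 and 949 CPM at 1 day, against 1513, 1466 and 1334 CPM in sham (log2 fold -0.91, SE 0.20). Mouse 6 was the highest of the 1-day libraries for both, and neither gene's groups overlapped. Atp5g1 and Atp5g3 encode precursors of the same mature c-ring subunit. Atp5g1 had 18.2, 16.1 and 23.2 CPM at 1 day, against 35.2, 38.1 and 37.7 CPM in sham (log2 fold -0.95), and Atp5g3 had 116, 95.5 and 124 CPM, against 199, 203 and 204 CPM (log2 fold -0.85). Their log2 ratio at 1 day differed from sham by -0.11, with overlap (exact permutation p = 0.3). At 14 days the ratio was above sham by 0.11 and above 1 day by 0.22, with no overlap (exact permutation p = 0.1 for each). The stator genes Atp5f1, Atp5h, Atp5j and Atp5o had log2 folds from -0.93 to -0.87. Atp5l, for the membrane subunit g, had 0.317, 0.595 and 0.403 CPM at 1 day, against 0.921, 0.809 and 1.02 CPM in sham. It rests on 9 to 34 counts per library with 68.5% of its windows shared with other transcripts, and its call was lost when any sham mouse or mouse 4 was left out.

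At 14 days, 8 of the 53 members were lower than in sham, beside 5.64% of all genes tested that were lower, and none was higher, beside 8.75%, 14.4% in all. No member was higher at an unadjusted p under 0.05 in edgeR, DESeq2 or limma-voom either. At that threshold 19, 23 and 19 members were lower, and in edgeR 4274 of all 14124 genes passed in either direction. The member median log2 fold was -0.27, where that of all genes was 0.01, and it turned to 0.01 with cardiomyocyte-marker scaling, which moved the median of all genes up by 0.29. No complex II gene was called; 2 of 9 complex III genes, 4 of 15 complex IV subunit genes, 1 of 9 assembly factors and 1 of 16 complex V genes were. The 14-day and sham libraries did not overlap for 28 members, all lower at 14 days, beside 18.4% of all genes tested that were lower without overlap and 20.9% that were higher. Leukocyte markers rose for 6 of 11 at 14 days and fibroblast markers for 8 of 9, the fibroblast markers with sums of 2068 to 5109 CPM at 14 days and 567 to 1017 CPM in sham, and 1 of 15 cardiomyocyte markers, Ckm, fell, with sums of 55851 to 73048 CPM at 14 days and 73087 to 80341 CPM in sham. The part of these markers in the result was not tested.

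Cox5b (GRCm38 chr1:36691449-36693681, plus strand) stood apart at 14 days. It had 52.4, 39.6 and 36.2 CPM at 14 days, 50.3, 40.1 and 37.2 CPM at 1 day, and 83.4, 88.2 and 95.6 CPM in sham. The libraries of both I/R groups overlapped each other and none reached sham. The log2 fold at 14 days was -1.06 (SE 0.15, adjusted p = 0.00318, edgeR), equal to that at 1 day, and between 14 days and 1 day it was 0.00 (SE 0.15). Cox5b was the only member called at 14 days whichever library was left out, and it was also lower with cardiomyocyte-marker scaling (log2 fold -0.79, SE 0.21). On that scale the log2 fold of Cox5b at 1 day against sham was -0.24 (SE 0.21) and was not called. Its log2 fold at 14 days against 1 day was -0.56 (SE 0.21) and was called lower. The equal folds at 1 day and 14 days were thus those with TMM scaling and did not hold with cardiomyocyte-marker scaling. Another gene, Gm11273, shares 25.9% of the windows of Cox5b and had no counts in any library.

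Each of the other 7 lost its call when at least 1 library was left out. Uqcrq, a small complex III subunit, had 61.4, 43.0 and 41.8 CPM at 14 days, against 74.8, 77.3 and 83.0 CPM in sham (log2 fold -0.69, SE 0.15, adjusted p = 0.012, edgeR). Uqcrc1 had 282, 200.2 and 193 CPM at 14 days, against 362, 362 and 325 CPM in sham (log2 fold -0.63, SE 0.19). Atp5d, the delta subunit of the F1 head, had 101, 82.6 and 73.8 CPM, against 126, 136 and 137 CPM (log2 fold -0.63, SE 0.14). For each of them library A was the nearest to sham and the groups did not overlap. Cox8a had 22.7, 21.3 and 22.7 CPM at 14 days, against 31.8, 33.0 and 27.3 CPM in sham (log2 fold -0.47), and Cox5a and Cox10 had log2 folds of -0.47 and -0.49.

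Members with no called change at 14 days included some whose libraries overlapped sham. Sdhd had 147, 130.3 and 123 CPM at 14 days, against 148, 151 and 144 CPM in sham (log2 fold -0.15, SE 0.16), and Uqcrh 173, 155 and 142 CPM, against 161, 162 and 164 CPM. Cox7a2l had 41.5, 38.6 and 39.1 CPM, against 39.6, 39.2 and 40.6 CPM, and Atp5s, which encodes coupling factor B, 8.41, 8.17 and 6.78 CPM, against 7.15, 7.72 and 8.49 CPM. In these 4 genes the groups overlapped. Sdha had 362, 304 and 259.7 CPM at 14 days, against 416, 426 and 381 CPM in sham, with no overlap but an adjusted p of 0.17 (edgeR), which was 0.0335 without mouse 6. Cox18 had 2.11, 1.96 and 1.63 CPM at 14 days, against 2.80, 2.63 and 2.75 CPM in sham, again with no overlap and not called (log2 fold -0.51, SE 0.23), but called without mouse 6 (adjusted p = 0.0477, edgeR).

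Cox6a1 had 15.3, 12.4 and 15.1 CPM at 14 days, against 19.2, 21.8 and 17.4 CPM in sham (log2 fold -0.46, SE 0.12), but with an offset for GC content and transcript length the fold turned to 0.08. Its longest transcript has a GC content of 62.7%, the highest of the 53 members tested. The count of 8 depended on single libraries: it was 3, 1 and 4 without sham mouse 1, 2 or 3, 14, 1 and 4 without library A, B or C, and 18 without mouse 6. The calls over all genes moved as well, from 797 of 14124 lower with all libraries. Lower were 298, 164 and 404 genes without sham mouse 1, 2 or 3, and 1190, 206 and 277 without library A, B or C. Without mouse 6, 1468 of 14649 genes were lower. Mouse 6 is in neither group and enters through the shared spread, the filter, the scaling and the adjustment over all genes tested. Without it the calls gained were Sdha, Cyc1, Uqcr11, Uqcrfs1, Cox4i1, Cox6a2, Cox14, Cox15, Cox18 and Atp5g3, with log2 folds from -0.56 to -0.30. The member count was 5 with the offset for GC content and length, beside 564 of 14124 genes lower. It was 17 when the 14-day and sham groups were fitted alone, beside 1369 of 13756 genes. By total count alone or with cardiomyocyte-marker scaling it was 1, Cox5b, beside 0.793% and 0.269% of all genes lower on those scales.

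**Figure D4:**
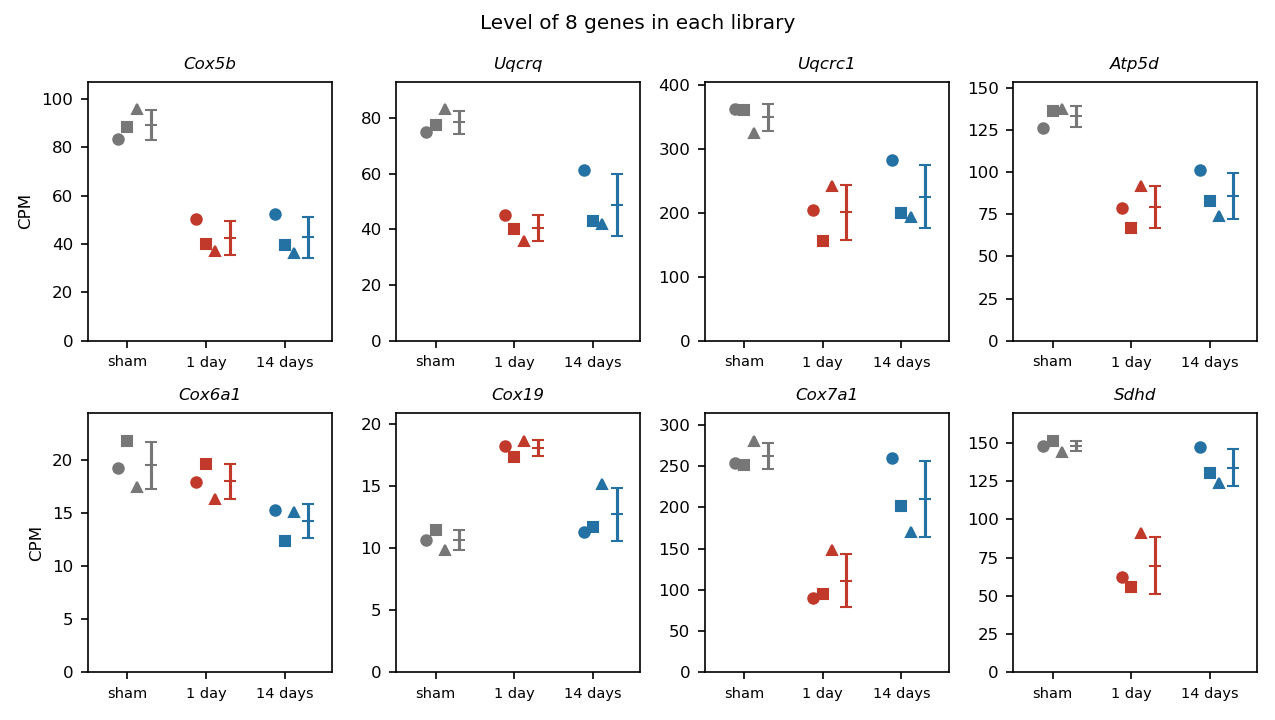
CPM of 8 members in each library, in the order sham, 1 day and 14 days; circles, squares and triangles are the libraries of each group in label order, and the bar beside them is the mean with its SD. Cox5b averages 42.7 CPM at 14 days, 42.5 CPM at 1 day and 89.1 CPM in sham, Cox7a1 and Sdhd are low at 1 day, and Cox19 is high at 1 day.

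Between the times after I/R, 36 members were higher at 14 days than at 1 day and 3 were lower, beside 25.1% and 26.8% of all genes tested, 51.9% in all, with a member median log2 fold of 0.60 and 0.00 for all genes. Libraries did not overlap for 34 members higher and 3 lower at 14 days, beside 27.3% and 29.0% of all genes. Higher were 3 of 4 complex II genes, 6 of 9 of complex III, 11 of 15 of complex IV, 14 of 16 of complex V and 2 of 9 assembly factors, Cox14 and Cox20. The assembly factors had a median of 0.10, which turned to -0.29 by total count alone and -0.42 with cardiomyocyte-marker scaling, and the fold of Cox14 (0.35) turned to -0.04 by total count alone. Of 39 calls, 29 held whichever library was left out. Without mouse 6, 39 members were higher and 3 lower, beside 4050 and 4311 of the 14649 genes tested. By total count alone 6 were higher and 3 lower, beside 7.55% and 38.7% of all genes. With cardiomyocyte-marker scaling 4 were higher and 7 lower, beside 6.07% and 44.6% of all genes. The median of all genes moved by -0.39 and -0.53 on these scales.

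The log2 fold of Sdhd at 14 days against 1 day was 0.94 (SE 0.16). Cox7a2l had 41.5, 38.6 and 39.1 CPM at 14 days, against 15.6, 17.5 and 27.0 CPM at 1 day (log2 fold 0.99, SE 0.16). Cox7a1 had 260.2, 202 and 169.5 CPM, against 90.7, 95.0 and 148 CPM (log2 fold 0.92, SE 0.20). In all 3 genes the lowest 14-day library was above mouse 6, the highest at 1 day, and these genes were also higher with cardiomyocyte-marker scaling and by total count alone. Atp5b, with a log2 fold of 0.37 (SE 0.19), and Sdha, with 0.38 (SE 0.19), were not called, but without mouse 6 both were, with folds of 0.53 and 0.61. Cyc1 and Cox7c were also called higher without mouse 6 and not with it, and Atp5l lost its call.

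The members lower at 14 days than at 1 day were Cox18, Cox19 and Cox6a1. For Cox18 the log2 fold was -0.96 (SE 0.22), and mouse 6, with 2.46 CPM the lowest at 1 day, was still above library A, with 2.11 CPM the highest at 14 days. Cox19 had 11.3, 11.7 and 15.2 CPM at 14 days, against 18.2, 17.3 and 18.6 CPM at 1 day (log2 fold -0.51, SE 0.12). Neither gene's groups overlapped. Cox6a1 had a log2 fold of -0.34 (SE 0.12), which turned to 0.21 with the offset for GC content and length.

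Taking the 3 comparisons side by side, 35 members were lower at 1 day than in sham, not called at 14 days against sham, and higher at 14 days than at 1 day, a pattern of calls shown by 16.4% of all genes tested. The comparisons share groups, so these calls are not independent. Uqcrc1, Uqcrq, Cox5b, Cox8a, Cox10 and Atp5d were lower at both times against sham and not called between the times. Cox5a was lower at both times and higher at 14 days than at 1 day (log2 fold 0.38, -0.00645 by total count alone). Across the 53 members, Pearson's r between GC content and the log2 fold at 14 days against sham was -0.34 (Spearman's rho -0.37), and across 13962 genes it was -0.21; these are descriptions over genes that share libraries.

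Other genes of the pathway were taken from lists chosen by name. Of 36 assembly factors and partners tested, 28 fell at 1 day, beside 24.8% of all genes tested. Lower at 14 days than in sham were 6, beside 5.64% of all genes. Higher at 14 days than at 1 day were 24, beside 25.1%. Ndufa4, now counted as a complex IV subunit, and Lrpprc, which stabilises mitochondrial messenger RNA, are the most abundant by CPM, and both had a log2 fold of -0.78 at 1 day (SE 0.15 and 0.14); that of Coa5, the next, was -0.53. Cycs, the electron carrier cytochrome c, chosen after its values were seen, had 7.83, 9.52 and 13.6 CPM at 1 day, against 23.4, 23.7 and 24.2 CPM in sham (log2 fold -1.22, SE 0.16). Of the subunits encoded in mitochondrial DNA, mt-Co1 (log2 fold -0.87) and mt-Cytb (-0.73) fell at 1 day. The genes mt-Co2, mt-Co3, mt-Atp6 and mt-Atp8 had at most 2 counts per library and were not tested. How reads with several matches were counted is not given, so these low counts are uncertain and do not show absence. The cause was not tested.

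Of 12 regulators of these genes, 7 fell and 2 rose at 1 day, beside 24.8% and 29.4% of all genes tested. Ppargc1a, the coactivator PGC-1 alpha, had 24.9, 27.1 and 43.6 CPM at 1 day, against 85.7, 75.3 and 75.2 CPM in sham, with no overlap (log2 fold -1.31, SE 0.21). Pprc1, a coactivator of the same family, had 24.9, 23.3 and 17.6 CPM at 1 day, against 6.99, 7.65 and 8.68 CPM in sham, also with no overlap (log2 fold 1.51). The estrogen-related receptor genes Esrra, Esrrb and Esrrg had log2 folds of -0.57, -1.15 and -0.94 at 1 day, Ppargc1b -0.59, Tfam -0.33 and Hif1a 0.32, all called. Gabpa, a subunit of GA-binding protein, fell by 0.59 on the log2 scale, and Nrf1 and Yy1 had log2 folds of -0.04 and 0.07 and were not called. Against 1 day, Ppargc1a (log2 fold 1.09), Esrrb (0.72), Esrrg (0.89) and Gabpa (0.49) were higher at 14 days and Pprc1 (-1.60) was lower. At 14 days Esrra was lower than in sham (log2 fold -0.82), and Hif1a was higher (0.51).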

How the data were processed

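RNA was measured by total RNA sequencing after removal of ribosomal RNA, with a stranded kit, per the labels' protocols. The authors deposited whole-number read counts per Ensembl gene, 1 column per library. STAR 2.7.1a and GRCm38/mm10 are named in the submitters' processing notes; neither these nor the labels used here name the counting tool, its strand setting or its annotation. Gene symbols, positions and overlaps came from GENCODE M21, which held 36429 of the 38293 table IDs.

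Counts were tested with edgeR 4.0.16 in R 4.3.3 (filterByExpr, TMM scaling, robust quasi-likelihood fit, all 9 libraries in 1 fit), with Benjamini-Hochberg adjustment over 14124 genes. The fit was tested on simulated data. DESeq2 1.42.0 and limma 3.58.1 (voom) were alternatives, beside other scalings, filters, correction for GC and length, and fits without 1 library. Isoform ratios were compared with scipy 1.17.1.

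Values per library were given, by rule, for isoform pairs and, per complex, the 2 members of highest mean CPM, those of the largest and smallest fold in each comparison, and those called against most of their complex; others were chosen after their values were seen. Members and lists were chosen with earlier results of these data known. Replicates differed by more than sampling noise (chi-square per degree of freedom 6.90 to 89.7), so all were kept as separate samples. Counts of a gene and an unresolved copy or overlapping gene may be split between them; 31 members share no 50-base window with another gene's transcript. Without ribosomal RNA, libraries held 7217019 to 15969149 counts.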

Additional observations from a re-analysis of the deposited data

How the results depend on the processing

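Under upper-quartile scaling, DESeq2 size factors, scaling without mitochondrial and ribosomal RNA genes, DESeq2, limma-voom and other filters on low counts, 47 or 48 members were lower and 1 higher at 1 day than in sham, 8 to 12 were lower at 14 days than in sham, and 36 or 37 were higher and 2 or 3 lower at 14 days than at 1 day. By total count alone, 22 were lower and 2 higher at 1 day, 1 was lower at 14 days, and 6 were higher between the times. With cardiomyocyte-marker scaling, chosen after seeing the data, 4 were lower and 5 higher at 1 day, 1 was lower at 14 days, and 4 were higher and 7 lower between the times. Tested against a 2-fold change (edgeR's glmTreat), 0 members were called in any comparison, with 1, Cox7a1, at an unadjusted p under 0.05 at 1 day and 0 in the others. Few genes of any kind passed this test. Of all 14124 genes, 201 were lower and 609 higher at 1 day, and 2 lower and 37 higher at 14 days against sham. Between the times 369 were lower and 257 higher. At 14 days against sham the count of lower members was 17 with only those groups fitted, 5 with the GC and length offset, and 1 to 18 when 1 library was left out. Over all genes tested the lower calls were 1369, 564 and 164 to 1468 in the same settings. At 1 day, leaving out 1 library gave 1 to 2 higher members, and 46 of 49 calls held throughout.

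The log2 fold turned to 0.16 for Cox15 at 1 day against sham, and to -0.00645 for Cox5a and -0.044 for Cox14 at 14 days against 1 day, by total count alone. For Cox6a1 it turned to 0.077 at 14 days against sham and 0.21 at 14 days against 1 day, with the GC and length offset. The cause was not tested. No paired analysis was possible because the groups share no replicate numbers. With 3 libraries a group the smallest p of the exact permutation test on isoform ratios is 0.1, and Atp5l, Cox7c, Atp5g2 and the 3 testis isoforms hold few counts; the first 3 also share much of their sequence with copies, and the part of either was not tested.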

Other observations

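Of the pseudogenes whose symbols resemble those of the members, 4 passed the filter on low counts. All 4 were lower at 1 day than in sham, beside 24.8% of all genes tested. Cox6c2 had 6.36, 5.75 and 8.82 CPM at 1 day, against 12.5, 14.0 and 13.3 CPM in sham (log2 fold -0.94, SE 0.16, adjusted p = 0.000564, edgeR). Uqcrh-ps1, Uqcrh-ps2 and Atp5k-ps2 had log2 folds of -0.91, -1.15 and -0.89. Cox6c2, Uqcrh-ps1 and Uqcrh-ps2 were higher at 14 days than at 1 day, by 0.81, 0.74 and 0.97 on the log2 scale, and none of the 4 was called at 14 days against sham.

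Within single 1-day libraries, the median log2 deviation of the complex IV assembly factors from the sham mean was -0.52, -0.61 and -0.30 in mice 4, 5 and 6, where that of all members was -0.93, -1.03 and -0.57.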
